A study of Mus musculus with 24 samples.

Results

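COX1 is the mitochondrial gene for subunit 1 of cytochrome c oxidase, complex IV of the respiratory chain. Here it was taken as all listed cytosines of both strands from nt 5328 to 6869 of mouse mtDNA (mm10, chrM:5328-6869), which are 616 of the 5829 cytosines listed for the whole molecule. Of these, 367 were L-strand and 249 H-strand cytosines. RefSeq annotates COX1 as a single uninterrupted coding sequence from nt 5328 to 6872, and its last 3 bases overlap a tRNA gene on the other strand and were not included. Subunit 1 carries the haem and copper centres at which oxygen is reduced to water, and it is the most conserved of the subunits that mtDNA encodes. COX2 and COX3 encode the other mtDNA-derived subunits of the same complex. In the reference used here the coding sequence of COX1 reads as the L strand, and the H strand is the complement that serves as the template for its transcript. Bisulfite turns unmethylated cytosine into uracil and leaves 5-methylcytosine (5mC) unchanged. The unconversion rate of a site, the percentage of reads that still show a cytosine, can thus contain 5mC, if there is any, and cytosines that the reagent did not reach. For the L strand the paper names a further possibility, library products copied from H-strand fragments without cytosine, which would be read as unconverted L strand. Which of these a read reflects was not tested.

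The libraries were made by post-bisulfite adaptor tagging (PBAT), in which adaptors are added after the bisulfite step, from 3 preparations of E14 mouse embryonic stem cells (ESC; E1, E2 and E3), 2 of brain (B1 and B2) and 2 of liver (L1 and L2, not to be confused with the L strand), both labelled as from C57BL/6J mice, whose age is not given in the sources used here (the methods also name ICR mice as a source of liver, without saying which libraries, if any, they gave). The ESCs, an established line, were wild type and were grown on feeder cells with LIF and 2 kinase inhibitors. Native mtDNA came from nuclease-treated mitochondria and was cut once with BglII, whose only site (nt 15335) lies outside COX1. A PCR product of the same molecule, which carries no 5mC, served as synthetic mtDNA (S1), and all received λDNA as a spike-in. E1, E2, B1, L1 and S1 were treated with bisulfite for 5, 15, 40 and 60 min, B2 and L2 for 60 min only, and E3 for 60 and 90 min, which gives 24 libraries. Sites with coverage of at least 10 reads were used.

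Depth was uneven between the strands and between libraries. After 60 min the median coverage of a COX1 cytosine was 15 to 172 reads for the L strand and 80 to 525 for the H strand, and the L strand of COX1 was covered more deeply than the rest of mtDNA in every library (3 to 42 reads). B2 was the shallowest library and S1 the deepest. In B2 only 218 of the 367 L-strand sites reached 10 reads, against 284 to 361 in the others. Several results that turn on B2 are given with and without it.

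Because the values of the L strand turned on a short stretch of sequence, its bases are shown first, 5′ to 3′ on the L strand, next to the other G-free runs of the same length in COX1. Capitals mark, in this order, the 10 cytosines with the highest rates (chrM:5788-5862), the 8 cytosines of a weaker group (chrM:5616-5676) and the 10 cytosines of a further run (chrM:6569-6629).
stretch of highest rates: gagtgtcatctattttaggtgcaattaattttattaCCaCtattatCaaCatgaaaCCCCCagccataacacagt
weaker group: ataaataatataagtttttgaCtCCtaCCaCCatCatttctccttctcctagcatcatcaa
further run: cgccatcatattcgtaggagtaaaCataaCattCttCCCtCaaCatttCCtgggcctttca

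Residual unconversion in COX1 after 60 min was low on both strands. On the L strand the mean over sites was 2.19% in E1, 1.94% in E2, 3.05% in E3, 1.49% in B1, 4.49% in B2, 2.33% in L1, 2.83% in L2 and 2.34% in S1. The 7 native preparations thus lay on both sides of synthetic mtDNA, 3 of them above it. The H-strand mean was 0.32% in E1, 0.30% in E2, 0.35% in E3, 0.46% in B1, 0.96% in B2, 0.59% in L1, 0.44% in L2 and 0.42% in S1. Here 4 native preparations were above synthetic mtDNA, B2 most of all. In every library of 60 min the median L-strand site of COX1 was at 0.30% or below, and in the 7 native libraries at 0%. At the sites with at least 10 reads the native libraries had a median of only 29 to 103 reads, against 174 in S1. Low rates were therefore harder to see in them.

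**Figure D1:**
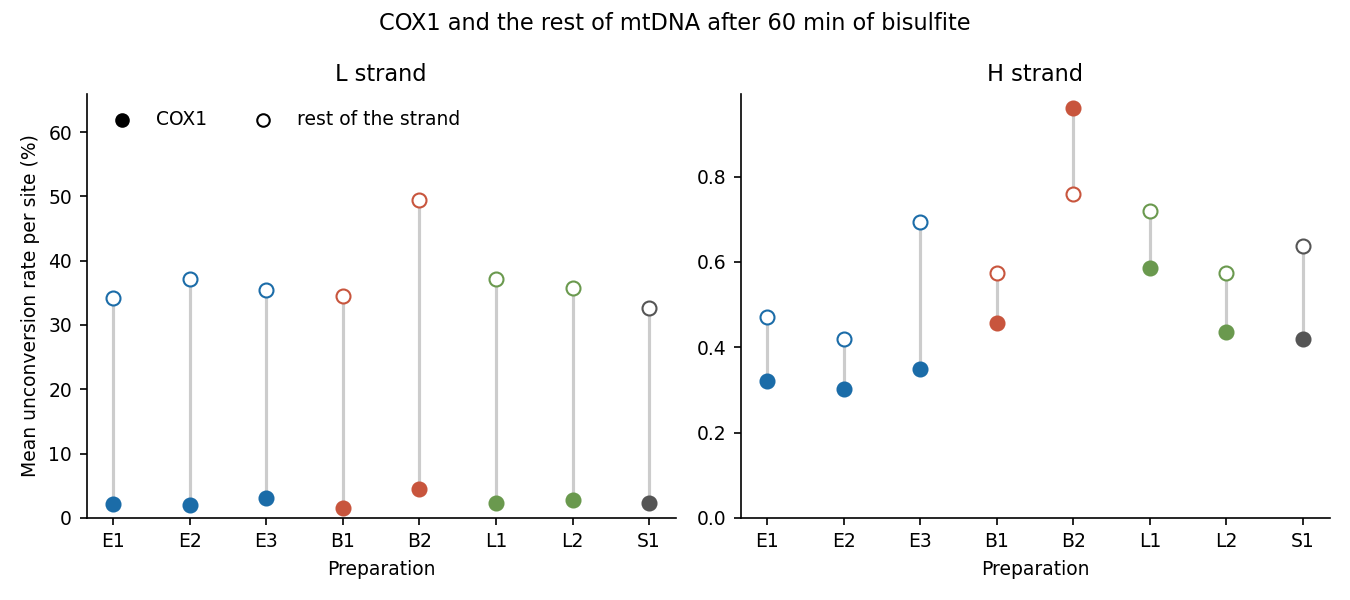
Mean unconversion rate per site (%) of COX1 (filled points) and of the rest of the same strand (open points) after 60 min, 1 column per preparation, joined by a grey line; the scales of the L strand (left) and the H strand (right) differ. On the L strand COX1 lies at 1.49 to 4.49% and the rest at 32.7 to 49.5%. For the H strand, COX1 is below the rest in 7 of the 8 preparations.

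The comparison that the synthetic DNA was made for, native against 5mC-free mtDNA, showed no difference beyond the spread of preparations. The native mean was 2.62% ± 0.98 (SD, n = 7) on the L strand, 0.28 percentage points above synthetic mtDNA (p = 0.88 in a two-sided exact permutation test in which each preparation in turn was set against the other 7, with 0.13 as the smallest possible p and an adjusted p of 0.88 over 6 comparisons). On the H strand it was 0.49% ± 0.23 (SD, n = 7), 0.068 points above synthetic mtDNA (p = 0.75, same exact test, adjusted p = 0.88). Without B2 both differences changed sign, to -0.030 and -0.011 points. With 1 synthetic preparation this design could not have reached a p of 0.05.

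No single cytosine of COX1 was called between native and synthetic mtDNA. Fisher's exact test on native reads summed over preparations against synthetic reads, with Benjamini-Hochberg adjustment over all 4129 testable cytosines of mtDNA, called 42 sites, 1.02% of those tested, and 0 of the 566 testable sites of COX1. Of the 42, 40 were L-strand sites (1.77% of those tested) and 2 H-strand sites (0.107%), against 0 of 317 and 0 of 249 in COX1. In 29 of the 42 the native rate was lower, which can hardly be called where rates are near 0%, as at most COX1 sites. Before adjustment 6 COX1 sites (1.06%) had p under 0.05, among 292 over all of mtDNA (7.07%). Of the 6, 5 were H-strand sites and 1 an L-strand site. Limma on logit-transformed rates, in which the single synthetic library is assumed to vary like the native ones, called 0 of all 4129 sites (0%), so that its 0 in COX1 says nothing about the gene. Under 0.05 before its adjustment were 53 COX1 sites, 44 of them on the L strand, among 487. These counts were 9.36% of the sites tested in COX1 and 11.8% of all. The logit adds 0.5 to both read counts, so a site with 0 unconverted reads takes a value set by its depth. S1 was the deepest library, and the part of this in the counts was not tested. The smallest adjusted p in COX1 was 0.36, at nt 6425 of the H strand, where the rate was 0.28% of 3183 native reads and 1.03% of 678 synthetic reads.

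ESC and tissue mtDNA were compared next, as pluripotent cells against differentiated tissues. On the H strand all 3 ESC preparations (0.30 to 0.35%) lay below all 4 tissue preparations (0.44 to 0.96%). The difference of -0.29 points gave p = 0.086 in the two-sided exact permutation test over all 35 splits (adjusted p = 0.17 over 6 comparisons). It was -0.17 points without B2. The rest of the H strand differed by -0.13 points in the same direction (p = 0.26, exact permutation test), and the difference between these differences, -0.16 points, gave p = 0.37 in the exact permutation test. After 40 min the order was the opposite, with 0.63% in E1 and 0.58% in E2 against 0.53% in B1 and 0.53% in L1. On the L strand the groups overlapped, with 1.94 to 3.05% in ESCs and 1.49 to 4.49% in tissues, and the difference was -0.39 points (p = 0.71, exact permutation test, adjusted p = 0.88). Without B2 it was 0.18 points.

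No single cytosine of COX1 was called between ESC and tissue mtDNA. Limma, fitted to logit-transformed rates of the single preparations, called 0 of 550 COX1 sites and 0 of all 3942 testable sites of mtDNA (0%). Before adjustment 50 COX1 sites had p under 0.05, 40 of them on the H strand, among 168 over all of mtDNA. These counts were 9.09% of the sites tested in COX1 and 4.26% of all. Fisher's exact test on summed reads called 0 COX1 sites and 1 of all 3942 testable sites of mtDNA (0.0254%). Under 0.05 before its adjustment were 36 COX1 sites (6.55%), among 156 over all of mtDNA (3.96%). With 0 or 1 call over the whole molecule, the 0 in COX1 says nothing about the gene.

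The L strand of COX1 had lower rates than the rest of that strand. The rest of the L strand kept rates of 34.2% in E1, 37.1% in E2, 35.5% in E3, 34.6% in B1, 49.5% in B2, 37.1% in L1, 35.7% in L2 and 32.7% in S1 after 60 min. Before computing its own rates, the paper removed almost wholly unconverted reads, which it found on the L strand of native and synthetic mtDNA. The rates given here appear to include such reads, so they are not the paper's L-strand level. COX1 was lower in 8 of 8 preparations, synthetic mtDNA included, by 34.5 percentage points on average (-34.46 ± 4.52, SD, n = 8). The two-sided exact sign-flip permutation test within preparations gave p = 0.0078, the smallest value that 8 preparations allow (adjusted p = 0.047 over 6 comparisons and 0.10 over all 26 that were computed). Sites of 50% or more made up 32.6 to 48.2% of the covered sites in the rest of the strand, and without them in both regions COX1 was lower by 3.57 points (-3.57 ± 0.44, SD, n = 8; p = 0.0078, exact sign-flip permutation test). The same difference was -36.86 points after 5 min, -33.99 after 15 min and -31.70 after 40 min, in 5 of 5 preparations each time (p = 0.063 in each exact test, the smallest that 5 preparations allow). The H strand of COX1 was lower than its rest in 7 of 8 preparations, with a mean difference of -0.13 ± 0.15 points (SD, n = 8; p = 0.055, exact sign-flip permutation test, adjusted p = 0.16). Without B2, the exception, this was -0.17 points (p = 0.016, exact), and with reads pooled over sites it turned to 0.051 points.

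Among the 15 protein and rRNA genes of mtDNA, COX1 had the lowest mean L-strand rate over the 8 libraries, 2.58%. COX3 followed with 3.47% (2.24 to 4.58%), then the 12S rRNA gene mt-Rnr1 with 5.14% and the 16S rRNA gene mt-Rnr2 with 6.29%. These were also the genes closest to COX1 over all 24 libraries, with mean absolute differences in rate of 4.08 points for COX3, 4.52 for mt-Rnr1 and 4.53 for mt-Rnr2. COX1 and COX3, the neighbours at the lower end, did not differ beyond their spread, as COX1 was lower in 6 of 8 preparations by 0.89 points (-0.89 ± 1.60, SD, n = 8; p = 0.15, exact sign-flip permutation test). COX2, the remaining mtDNA-encoded subunit of the complex, had a mean of 27.6% and ranged from 7.77% in synthetic mtDNA to 91.8%, at a median coverage of 4 reads against 43 in COX1. COX1 was lower than COX2 in 8 of 8 preparations (-25.03 ± 25.83 points, p = 0.0078, exact, adjusted p = 0.10 over 26 comparisons). The value of 91.8% was that of B2, in which only 8 of the 173 L-strand sites of COX2 reached 10 reads, and without B2 the difference was -16.13 ± 6.26 points (SD, n = 7; p = 0.016, exact, the smallest that 7 preparations allow). At the upper end of the order stood ND6 with 99.5% and ATP8 with 99.0%.

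On the H strand COX1 took a middle place, with 0.48% the tenth lowest of the same genes, whose means ran from 0.22% in ND6 to 1.52% in mt-Rnr1. The closest genes over the 24 libraries were ND1 (mean absolute difference of 0.23 points), CYTB (0.32) and ND2 (0.37). COX3 was higher than COX1 in 7 of 8 preparations (-0.15 ± 0.17 points for COX1 minus COX3, p = 0.023, exact sign-flip permutation test, adjusted p = 0.18), and COX2 in 6 of 8 (p = 0.21, exact).

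**Figure D2:**
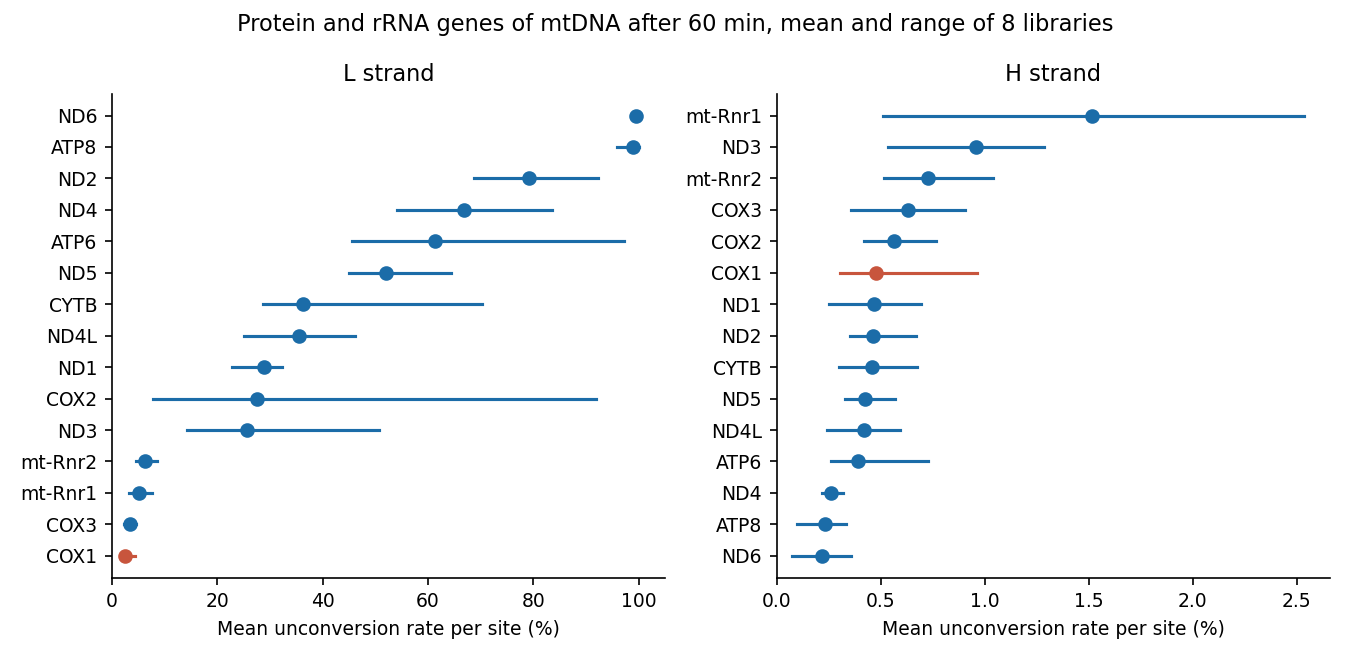
Mean unconversion rate per site (%) of the 15 protein and rRNA genes after 60 min on the L strand (left) and the H strand (right); points are means of 8 libraries, lines run from the lowest to the highest library, and COX1 is in red. COX1 is at the bottom of the L-strand order with 2.58% and in the middle of the H-strand order with 0.48%.

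The low L-strand mean of COX1 was not spread evenly over the gene. A row of 10 neighbouring cytosines, nt 5824 to 5848 (bases 497 to 521 of the gene, codons 166 to 174), held most of the unconverted reads. Over the 8 libraries their mean rates fell from 67.8% at nt 5824 over 53.5% at nt 5834 and 41.2% at nt 5844 to 21.7% at nt 5848. The first of them was unconverted in 67% of reads in E1, 50.5% in E2, 74.4% in E3, 49.4% in B1, 94.7% in B2, 72.5% in L1, 71.2% in L2 and 62.6% in S1. The last stood at 20, 13.1, 24.4, 12, 30.8, 31.7, 23.7 and 17.9% in the same order, so the 5′ site was above the 3′ site in each of the 8. Synthetic mtDNA lay within the native range at both ends, and the mean over the 10 sites was 48.8% ± 12.3 (SD, n = 7) in native preparations, against 45.6% in S1.

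These 10 sites received 2.26 to 3.84% of the L-strand calls of COX1 and 58.7 to 79.9% of its unconverted calls. Without them the L-strand mean of COX1 was 0.95% ± 0.37 (SD, n = 7) in native preparations, against 1.10% in S1. Of the other 188 L-strand sites covered in all 8 libraries, 180 had a mean under 5%. The remaining 8 were the weaker group, nt 5637 to 5650 (bases 310 to 323 of the gene), with a group mean of 8.02% (1.86 to 14.5%) and 10.4% in synthetic mtDNA, and the highest of them was nt 5643 with 9.63%.

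**Figure D3:**
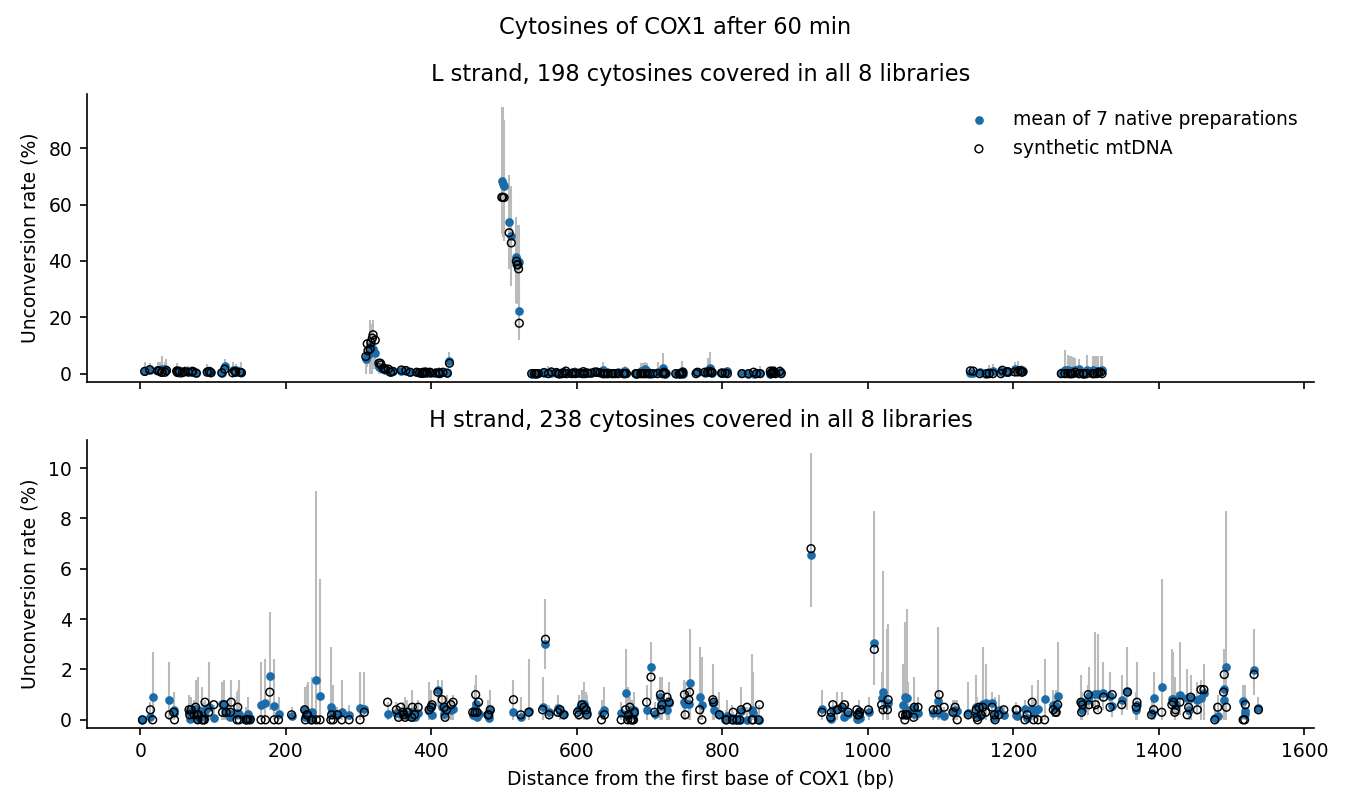
Unconversion rate (%) of the COX1 cytosines covered in all 8 libraries of 60 min against the distance from the first base of COX1 (bp), 198 of the L strand (top) and 238 of the H strand (bottom); blue points are means of 7 native preparations, open circles synthetic mtDNA, and grey lines the range of the 8 libraries. On the L strand 1 tall group at bases 497 to 521 and 1 low group at bases 310 to 323 stand out, and on the H strand 1 site reaches a native mean of 6.54%.

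The 3′ edge of the stretch was abrupt, while the 5′ edge was resolved less closely. Summed over the 8 libraries, 599 of 957 reads were unconverted at nt 5824 and 131 of 721 at nt 5848, but 0 of 588 at nt 5851, the next cytosine 3′ of it, which allows a rate of up to 0.51%. On the 5′ side 0 of 118 reads were unconverted at nt 5809, the nearest cytosine, which allows a rate of up to 2.54%. At nt 5797 it was 1 of 606. No cytosine lies between nt 5809 and nt 5824 to place this edge. The converted reads took a different course and rose along the stretch. They numbered 358 at nt 5824, 569 at nt 5844, 590 at nt 5848 and 588 at nt 5851, while the total coverage dropped from 721 to 588 over the last step. In synthetic mtDNA alone the counts were 213 of 340 at nt 5824, 40 of 223 at nt 5848 and 0 of 182 at nt 5851. After 5 min the step was smaller, with means of 73.7% at nt 5848 and 46.8% at nt 5851 over 5 libraries.

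**Figure D4:**
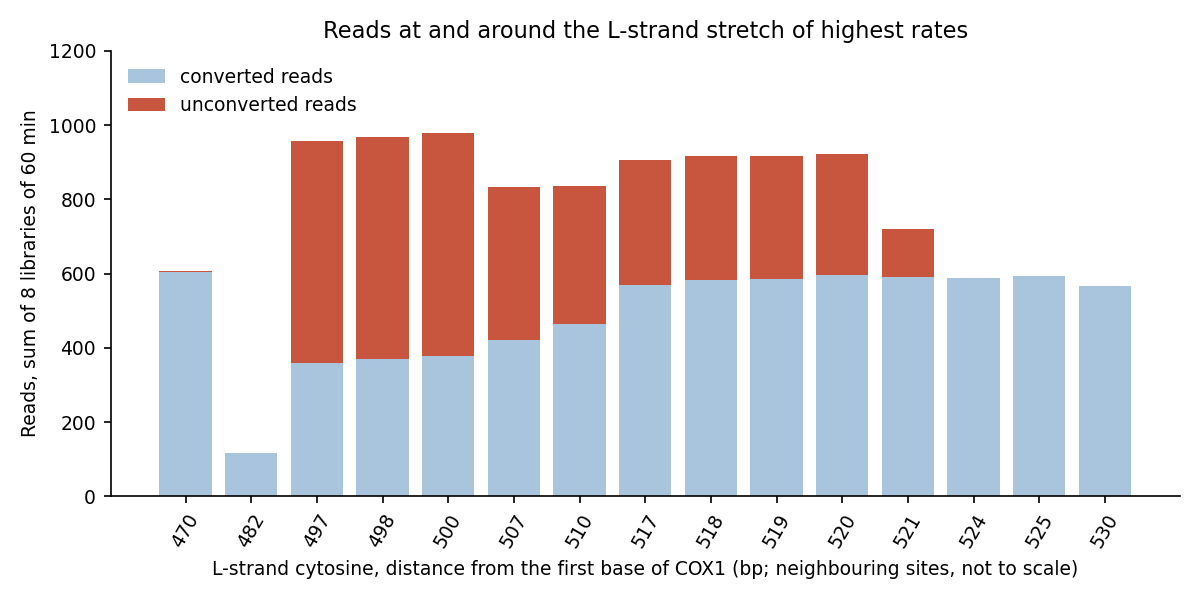
Reads summed over the 8 libraries of 60 min at 15 neighbouring L-strand cytosines, labelled by distance from the first base of COX1 (bp; not to scale); blue bars are converted and red bars unconverted reads. Unconverted reads fill the 10 sites from base 497 to 521, falling from 599 to 131, and number 0 or 1 at each of the 5 sites around them.

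The L strand of mouse mtDNA is poor in G, and COX1 less so than most of it. COX1 holds 16.1% G on the L strand against 12.0% in the rest of mtDNA, behind only both rRNA genes among the 15 genes. The median number of G in the 25 bases on each side of an L-strand cytosine was 8 in COX1 and 5 in the rest. No COX1 site had fewer than 2, and 18 of 367 (4.90%) had 3 or fewer, against 898 of 3523 (25.5%) in the rest. Over the 8 libraries the COX1 mean was 19.9% at 2 to 3 G, 6.94% at 4 to 5, 0.90% at 6 to 7, 0.84% at 8 to 9 and 0.59% at 10 or more. The stretch held 7 of the 18 sites of the first class and 3 of the 39 of the second. Without it these classes stood at 6.26% and 0.80%, so that from 4 G upwards all COX1 classes were under 1%. The rest of the strand stood at 70.2, 34.0, 9.36, 3.63 and 1.76% in the 5 classes, above COX1 in each. Coverage differed as well, with medians of 32 to 66 reads in the COX1 classes and 8 to 22.5 in those of the rest, and its part in the difference was not tested.

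The longest runs without G in COX1 had 31 bases, against 103 bases in mtDNA as a whole. There were 3 of them, at chrM:5809-5839, chrM:5636-5666 and chrM:6589-6619. The first held 6 cytosines with a mean of 57.5% and overlapped the stretch of highest rates, which extends beyond it by the run of 5 cytosines at its 3′ end. The 5′ cytosine of this run, nt 5809, lies outside the stretch and was unconverted in 0 of 118 reads. It entered the mean only in libraries where it reached 10 reads. The second held 14 cytosines with a mean of 5.45% and includes the weaker group. The last held 10 cytosines with a mean of 0.91% (0 to 5.04%) and 0.050% in synthetic mtDNA. A G-free run of this length was therefore seen both with high and with low rates. The cytosines of the last run had a median of 7 G within 25 bases on each side, those of the first 4.5 and those of the second 3.

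In windows of 100 bp from the start of the gene, the 3 highest L-strand means were 13.1% at chrM:5728-5827, 9.58% at chrM:5828-5927 and 2.84% at chrM:5628-5727. In the first of these B2 had 28.9%, against at most 14.8% in any other library. The 3 lowest L-strand means were 0.19% at chrM:6228-6327, 0.34% at chrM:6128-6227 and 0.43% at chrM:5928-6027. The last of these adjoins the 2 windows that hold the stretch on its 3′ side. The window at chrM:6228-6327 had a median coverage of only 12.75 reads and a value in 7 libraries. L1, L2 and E1 stood at 0% there, so low rates could not be resolved. The window at chrM:5828-5927 had the lowest G content of the gene, 9%. On the H strand the highest windows were chrM:6728-6827 with 0.82%, chrM:6628-6727 with 0.79% and chrM:6828-6869 with 0.74%. All 3 owed part of their mean to B2, which had 1.88, 1.93 and 1.46% there, against at most 0.96, 0.79 and 0.98% in any other library. The order of the windows without B2 was not computed. The lowest H-strand windows were chrM:6128-6227 with 0.19%, chrM:5628-5727 with 0.28% and chrM:5328-5427 with 0.30%.

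H-strand cytosines of COX1 were almost all converted after 60 min, as 232 of 249 had a mean under 1%. The 5 highest sites covered in all libraries were nt 6249 with 6.58%, nt 5884 and nt 6336 with 3.03% each, nt 6029 with 2.04% and nt 6858 with 1.95%. The H-strand sequence around the first 3 is given 5′ to 3′ with the site in capitals (chrM:6234-6264, chrM:5869-5899 and chrM:6321-6351).
nt 6249: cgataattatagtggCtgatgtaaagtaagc
nt 5884: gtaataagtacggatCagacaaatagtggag
nt 6336: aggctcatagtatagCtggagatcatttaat

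Site nt 6249 was unconverted in 6.40% of reads in E1, 8.40% in E2, 5.20% in E3, 5.90% in B1, 10.6% in B2, 4.50% in L1, 4.80% in L2 and 6.80% in S1. Synthetic mtDNA lay inside the native range. The site was above the H-strand mean of COX1 in all 8, but it was picked as the highest over these same libraries. Site nt 5884 ranged from 2.0% in B2 to 4.80% in L2, with 3.20% in synthetic mtDNA. Site nt 6336 owed part of its mean to B2, which had 8.30% at 72 reads while the other libraries had 1.4 to 3.0%. All 3 stand in CHG context, where H is A, C or T, as does nt 6029, and nt 6858 is CHH.

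After 5 min, before conversion was complete, H-strand sites of COX1 differed widely among themselves. Site means over 5 libraries ran from 18.8 to 42.7% with a median of 30.6%. The slowest were nt 5880 (42.7%), nt 6336 (42.6%), nt 5997 (42.3%), nt 5505 (41.9%) and nt 6249 (41.6%), and the fastest were nt 6804 (18.8%), nt 6142 (19.1%), nt 5412 (20.4%), nt 5415 (20.6%) and nt 6817 (21.4%). At nt 6804 the 5 libraries lay between 14.4 and 20.8% and at nt 5880 between 37.9 and 49.7%. Both sites were picked by rank on these same libraries, so the gap between them is no separate check. Sites nt 6249 and nt 6336 were thus among the 5 highest at both times. Of the 5 slowest 4 were CHG, and the 5 fastest were all CHH, while the H strand of COX1 as a whole has 56 CHG and 163 CHH sites among its 249. As whole classes they lay close together after 5 min, with means of 31.7% at CHG and 29.9% at CHH sites. The 3 slowest and the 3 fastest are shown with 10 bases on each side, 5′ to 3′ on the H strand, so that their surroundings can be compared.
slow, nt 5880 (chrM:5870-5890): acggatcagaCaaatagtgga
slow, nt 6336 (chrM:6326-6346): catagtatagCtggagatcat
slow, nt 5997 (chrM:5987-6007): tcccctcctcCagcgggatca
fast, nt 5412 (chrM:5402-5422): gcagtacccaCtattcccgct
fast, nt 6142 (chrM:6132-6152): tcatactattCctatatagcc
fast, nt 6804 (chrM:6794-6814): tgaagtcattCtaaatttgtt

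CG sites, the main target of methylation in nuclear DNA, were not the less converted class of COX1. The gene holds 30 CG pairs. On the L strand their mean after 60 min was 0.71% ± 0.42 (SD over 8 libraries), against 1.19% ± 0.50 at CHG and 3.08% ± 1.09 at CHH sites. CG was below CHH in 8 of 8 libraries (-2.37 ± 0.93 points; p = 0.0078, two-sided exact sign-flip permutation test; adjusted p = 0.039 over 20 class comparisons). All 10 sites of the stretch are non-CG, 9 of them CHH, and without them the difference was -0.34 ± 0.38 points (p = 0.063, exact). H-strand CG sites had 0.47% ± 0.23, CHG sites 0.69% ± 0.24 and CHH sites 0.41% ± 0.21, and CG was below CHG in 8 of 8 libraries (-0.21 ± 0.089 points, p = 0.0078, exact, adjusted p = 0.039). In synthetic mtDNA CG sites stood at 0.49% on the L and 0.31% on the H strand. Only 14 of the 30 L-strand CG sites were covered in all 8 libraries, and 1 of them reached 10 reads in 1 library only. In 29 of the 30 pairs both cytosines had means under 5%. The exception was the pair at nt 5613, with 6.80% on the L strand over 7 libraries. This value rested on few reads, 98 in the native libraries together and 28 in S1. It ran from 0% in L1 and L2 to 16.7% in E3. The highest H-strand CG site, nt 5994, had 1.0%.

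Codon position gave values that depended on the same stretch. The mean L-strand rate was 2.01% at codon position 1, 2.77% at position 2 and 2.93% at position 3, and position 1 was below position 3 in 8 of 8 libraries (-0.92 ± 0.55 points; p = 0.0078, exact sign-flip permutation test; adjusted p = 0.039). Without the 10 sites the order was reversed, with 1.16, 0.96 and 0.80% (position 1 minus position 3 0.36 ± 0.33 points; p = 0.016, exact).

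COX1 lost most of its unconverted cytosines between 5 and 15 min. On the L strand the 5 min rates were 34.3% in E1, 36.0% in E2, 33.1% in B1, 33.9% in L1 and 32.6% in S1, less than the 69.5 to 72.1% of the rest of the strand. They fell to 8.67% in E1, 3.34% in E2, 3.52% in B1, 3.33% in L1 and 5.81% in S1 after 15 min, and to 1.72, 2.40, 2.40, 1.44 and 2.45% after 40 min. For the H strand the same libraries had 30.6, 32.1, 30.1, 30.7 and 28.7% after 5 min, 9.71, 2.91, 2.83, 2.77 and 3.04% after 15 min, and 0.63, 0.58, 0.53, 0.53 and 0.47% after 40 min. The 15 min library of E1 was the highest on both strands, and so was the rest of its mtDNA, with 44.9% on its L strand (36.8 to 38.2% in the others) and 10.7% on its H strand (3.37 to 3.80%).

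After 5 min all 4 native libraries were above synthetic mtDNA, by 1.69 points for the L strand (p = 0.40) and by 2.17 points for the H strand (p = 0.20, exact permutation tests that cannot give a p below 0.20). Within the stretch the mean of the 10 sites was 76.8 to 93.2% after 5 min, 47.1 to 72.8% after 15 min, 24.3 to 52.9% after 40 min and 32.4 to 66.1% after 60 min, while the L strand of COX1 without it went from 31.1 to 34.3% after 5 min down to 0.52 to 1.53% after 60 min.

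**Figure D5:**
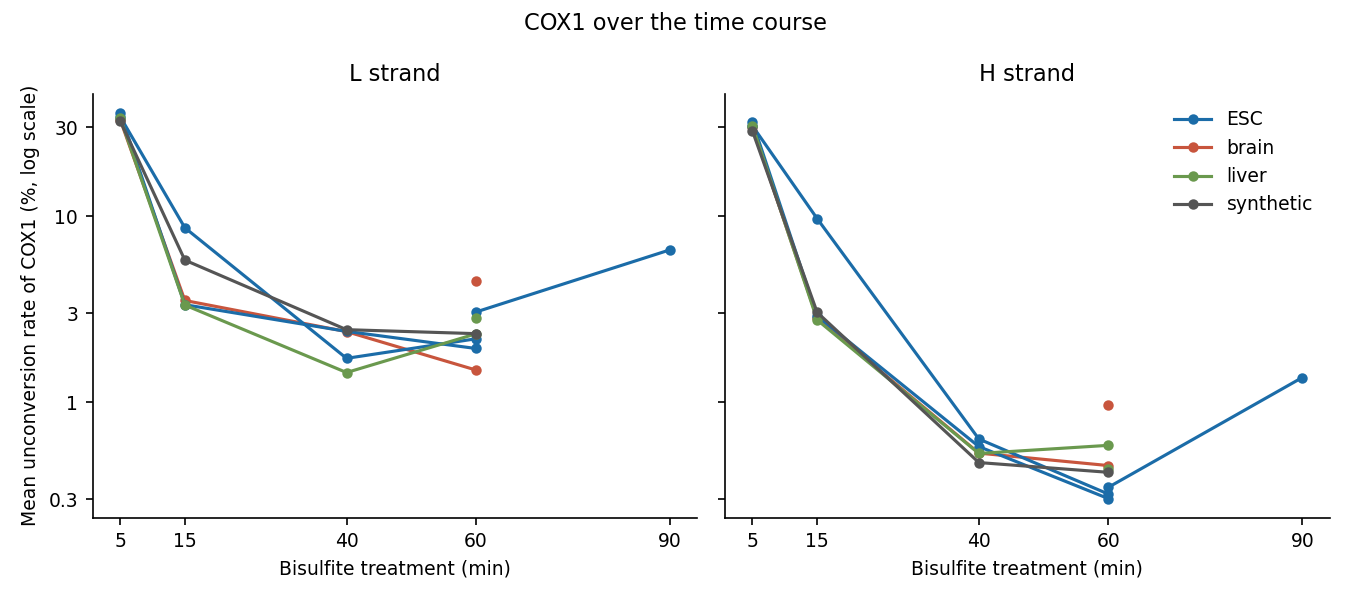
Mean unconversion rate of COX1 (%, log scale) against the duration of the bisulfite treatment (min) on the L strand (left) and the H strand (right); lines join the libraries of 1 preparation and single points are preparations with 1 library. The 5 min rates are 32.6 to 36.0% (L strand) and 28.7 to 32.1% (H strand), the 15 min library of E1 lies above the others, and E3 is higher after 90 than after 60 min.

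Longer treatment did not lower the rates further in the preparation that allows the comparison. After 60 min E3 had 3.05% (L strand) and 0.35% (H strand), and after 90 min 6.59 and 1.36%. At the sites covered in both libraries the means rose from 4.37 to 6.59% over 181 L-strand and from 0.36 to 1.36% over 238 H-strand cytosines. The calls of COX1 that were left after 90 min were 26.1% (L strand) and 21.1% (H strand) of those after 60 min, and the stretch stood at 75.3% after 90 min against 54.9% after 60 min. With 1 library per time this difference has no replicate check.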

How the data were processed

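The authors treated mtDNA with 9.2M bisulfite, made PBAT libraries, trimmed the reads with Trim Galore and aligned them with Bismark to mm10; versions used for these libraries are not given in the sources used here. The deposited values are, for each cytosine, the percent of reads in which it was unconverted and the coverage, a count of reads, both before any filter on completely unconverted reads as far as the values show.

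All 24 libraries were used, grouped by their labels. Unconverted reads were taken as percent times coverage, rounded. Sites with at least 10 reads entered, and the rate of a region is the mean over its sites. All 5829 listed positions match the RefSeq mtDNA of 16299 bp. Region means were compared by exact permutation tests over preparations (Python 3.11.15, SciPy 1.17.1), single sites by Fisher's exact test and by limma 3.58.1 (R 4.3.3) on the empirical logit with an offset of 0.5, each with Benjamini-Hochberg adjustment over all testable sites at 0.05. Where a share is 0, 3 reads give the upper limit; limits cover counting error only. The replicates are separate preparations; reads summed over preparations hide their spread.

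COX1, the windows, the classes and the other genes named were chosen with earlier results of these data known. Sites were named by rank (the 5 highest per strand after 60 min, the 5 slowest and fastest H-strand sites after 5 min, the 3 highest and lowest windows of 100 bp per strand). The stretch (neighbouring sites with means of at least 20%), the weaker group (at least 5%) and the G-free runs were chosen after their values were seen, as was leaving out the stretch, or B2 from the comparison with COX2.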

Additional observations from a re-analysis of the deposited data

Results flagged for a closer look

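In groups of 4 to 10 libraries, a library was picked out when its gap to the nearest other one exceeded the 95% critical value of Dixon's test; 26 groups of COX1 values were examined, 6 gave a library, and chance picks about 1 in 20. After 15 min E1 stood apart from the other 3 native libraries on the L strand (8.67% against 3.33 to 3.52%), on the L strand without the stretch (7.17% against 1.97 to 2.10%) and on the H strand (9.71% against 2.77 to 2.91%). After 60 min B2 stood apart from the other 6 native libraries on the H strand (0.96% against 0.30 to 0.59%) and in the difference between COX1 and the rest of the strand, which was -44.98 points on the L strand (-35.20 to -32.00 in the others) and 0.20 points on the H strand (-0.35 to -0.12). B2 was also the shallowest of these libraries, with median coverages of 15 and 80 reads in COX1, and the part of depth in these values was not tested.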

How the results depend on the processing

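Of 208 recomputed values of 27 results, 172 kept their direction and side of the threshold or moved by less than the spread. COX1 stayed below the rest of the L strand under every alternative run, but by 3.57 points only (-3.57 ± 0.44) without sites of 50% or more, and -34.81 to -32.95 points when 1 preparation was left out. With the 5 preparations of 40 min it was -31.70 points, where 5 values cannot reach 0.05. The count of COX1 sites called was 0 in the main tests and under all their alternatives, each native library left out in turn included.

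The native L-strand mean of 2.62% became 1.51% without sites of 50% or more and 0.95% without the stretch, and the synthetic one 1.70 and 1.10%, 2.20 and 2.21% with a coverage minimum of 20 and 30, 3.10% over sites covered in all 8 libraries and 2.45% after 40 min. The synthetic H-strand mean was 0.465% with pooled reads and 0.473% after 40 min, the native one after 40 min 0.51 and 0.50% with minimums of 20 and 30, and the native L-strand mean after 5 min 31.5% with pooled reads.

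Small differences turned sign. Native minus synthetic on the L strand was -0.14 points with pooled reads, -0.19 without sites of 50% or more, -0.15 without the stretch, -0.46 after 40 min and -0.030 to 0.47 with 1 preparation left out; for the H strand it was -0.011 to 0.099. ESC minus tissue on the L strand was 0.41 and 0.66 points with minimums of 20 and 30, 0.0094 with pooled reads, 0.18 without sites of 50% or more, 0.024 without the stretch, 0.14 after 40 min and -0.82 to 0.18 with 1 preparation left out, and for the H strand 0.074 (40 min libraries) and -0.34 to -0.17. COX1 minus the rest of the H strand was 0.051 points with pooled reads and -0.17 to -0.095 with 1 preparation left out, the former end without B2 (p = 0.016, exact test). Without the stretch, the L-strand difference CG minus CHG was -0.039, CG minus CHH -0.34, and codon position 1 minus 3 and 1 minus 2 turned to 0.36 and 0.20 points. The causes were not tested, except that leaving out the stretch removes its own high rates.

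Correlations of deviations between preparations of the same replicate number ran from -0.20 to 0.22. Brain and liver have 2 preparations each, and replicates 1 and 2 gave the same value for them. This check therefore cannot tell whether the numbers pair preparations. The fit with the replicate block left out E3, which has no tissue counterpart. ESC minus tissue was then -0.72 points on the L and -0.30 on the H strand, the values found without E3 and no block, and 0 COX1 sites were called.

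Depth limits the L strand most. In the libraries of 60 min, the median depth was taken over sites with at least 10 reads. At that depth 3 unconverted reads amount to a rate of 1.72 to 10.3% (L strand) or 0.57 to 3.66% (H strand).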
